A study of Mus musculus with 14 samples.

Results

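The myoblast line of a set of 11 mouse cell lines was compared with the fibroblast lines of the same set, to show which muscle genes it carried beyond genes that mesenchymal cells share. The comparison was taken probe by probe, as the log2 ratio on the array labelled myoblast minus the mean of the fibroblast line, whose 2 arrays were averaged first, and the embryo fibroblast line. Each array was centred on its own median beforehand. It used 4 of 14 two-colour spotted arrays: 1 of the myoblast line, 2 of the fibroblast line and 1 of the embryo fibroblast line. On every array Cy5 carried RNA of 1 line and Cy3 carried the Stratagene mouse reference, a commercial RNA pool from mouse cell lines that serves as the common channel. The lines bear no treatment, time or genetic change in their labels, and strain, passage, medium and clone names were not given in the sources used here. Their titles speak of cell lines and the short annotation of primary tissue, and the titles were followed. The myoblast and embryo fibroblast lines had 1 array each, so their own values have no replicate check, and each line stands as a model of its cell type through a single labelled line.

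Myoblasts are the proliferating precursors of skeletal muscle. They are held in their lineage by the transcription factor MyoD, leave the cell cycle as myogenin comes on, and fuse into myotubes that build sarcomeres, calcium stores and acetylcholine receptors. Fibroblasts make the collagens and proteoglycans of connective tissue, and many matrix genes are active in both cell types. The basic helix-loop-helix factors of muscle bind a short palindrome called the E-box in the promoters of many of these genes, often beside sites of MEF2 and of serum response factor, whose site is the CArG box.

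The promoters of 6 muscle genes with wide positive differences are shown here, as windows that carry, or lack, exact matches to these motifs. The differences of Acta1 and Casq2 passed the test described further on and those of the other 4 genes did not. Among muscle genes not shown, Cdh15 and Tnnt1 passed it too, with differences of 4.82 and 4.71, and their windows held no CAGCTG. Each run is the 250 bases before a transcription start on the strand of the gene, 5′ to 3′, from RefSeq on GRCm38.p6. Capitals mark every CANNTG E-box, the CAGCTG form contained in it, the MEF2 motif (YTAWWWWTAR) and the CArG box (CCWWWWWWGG), searched on both strands. Y stands for C or T, W for A or T and R for A or G, and only exact matches were counted. The desmin window is chr1:75360042-75360291 on the plus strand, the Myog (myogenin) window chr1:134289754-134290003 on the plus strand and the Chrna1 (acetylcholine receptor subunit) window chr2:73580339-73580588 on the minus strand. The troponin gene Tnni1 is given by the first of its windows, chr1:135799171-135799420 on the plus strand, skeletal actin (Acta1) by chr8:123894776-123895025 on the minus strand and the calcium store gene Casq2 by chr3:102086165-102086414 on the plus strand.
Des: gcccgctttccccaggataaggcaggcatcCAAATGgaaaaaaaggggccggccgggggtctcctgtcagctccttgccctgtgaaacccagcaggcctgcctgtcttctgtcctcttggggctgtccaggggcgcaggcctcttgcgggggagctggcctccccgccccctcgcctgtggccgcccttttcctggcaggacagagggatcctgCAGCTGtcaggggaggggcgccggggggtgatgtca
Myog: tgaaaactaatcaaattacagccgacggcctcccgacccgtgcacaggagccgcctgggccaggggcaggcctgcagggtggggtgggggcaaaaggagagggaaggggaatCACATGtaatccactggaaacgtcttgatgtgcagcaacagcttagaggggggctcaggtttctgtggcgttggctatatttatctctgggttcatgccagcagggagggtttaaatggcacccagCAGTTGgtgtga
Chrna1: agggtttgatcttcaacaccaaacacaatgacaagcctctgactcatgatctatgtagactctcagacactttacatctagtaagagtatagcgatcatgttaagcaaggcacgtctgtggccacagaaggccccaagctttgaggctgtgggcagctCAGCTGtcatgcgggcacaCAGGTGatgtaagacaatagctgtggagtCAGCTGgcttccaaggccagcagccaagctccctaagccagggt
Tnni1: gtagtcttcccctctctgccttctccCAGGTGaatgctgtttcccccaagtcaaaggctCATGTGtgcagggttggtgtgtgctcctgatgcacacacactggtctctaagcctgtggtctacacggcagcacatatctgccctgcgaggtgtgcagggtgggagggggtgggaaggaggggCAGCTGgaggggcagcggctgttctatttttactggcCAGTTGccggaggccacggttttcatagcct
Acta1: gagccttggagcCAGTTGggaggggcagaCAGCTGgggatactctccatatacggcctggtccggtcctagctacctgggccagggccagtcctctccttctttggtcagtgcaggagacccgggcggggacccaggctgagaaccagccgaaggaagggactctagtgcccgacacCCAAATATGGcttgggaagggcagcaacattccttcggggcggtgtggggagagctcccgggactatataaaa
Casq2: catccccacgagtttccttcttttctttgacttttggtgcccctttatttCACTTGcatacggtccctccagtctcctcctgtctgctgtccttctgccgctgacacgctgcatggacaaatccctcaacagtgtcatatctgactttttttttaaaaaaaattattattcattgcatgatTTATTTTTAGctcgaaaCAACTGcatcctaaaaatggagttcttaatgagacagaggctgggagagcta

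The Chrna1 window held CAGCTG 2 times, at 92 to 87 and at 44 to 39 bases before the start. The Des, Tnni1 and Acta1 windows held it 1 time each, in Des at 36 to 31 bases before the start. The Myog and Casq2 windows held other CANNTG boxes. In the windows of named muscle genes the only exact match to the MEF2 motif lay in Casq2 (69 to 60 bases before the start). The only exact CArG box lay in Acta1 (73 to 64 bases). Near matches were not counted, such as ctatatttat in the Myog window and ctatttttac in the Tnni1 window, which miss the MEF2 motif at the last base. A window without a marked motif may thus still hold such a site. Of 19 named muscle genes with a positive difference 15 had a window, and they had 20 windows between them. CAGCTG was in 8 of these 20 windows (40.0%) and in 13% of all 32851 windows of this length, and CANNTG in 16 (80.0%) and in 66.2%. A MEF2 motif was in 1 of 20 windows (5.0%) and in 2.92% of all, and a CArG box in 1 (5.0%) and in 1.47%. These matches describe letters in a window and not sites in use, and windows of 1 gene can overlap.

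The median of the deposited values was -0.069 on the myoblast array, -0.102 and -0.046 on fibroblast arrays 1 and 2 and -0.508 on the embryo fibroblast array, which lay low as a whole, and centring removed these shifts. The spread of the 4 arrays was alike, with SDs from 0.875 to 0.974. The fibroblast arrays were less alike than the arrays of the other pairs. Over the probes, which do not count as independent replicates, Pearson's r came to 0.38 for the fibroblast arrays and to 0.674 between the arrays of the mammary tumor line and between those of the myeloma line. Fibroblast array 2 correlated with the myoblast array at 0.406 and fibroblast array 1 at 0.137, and the embryo fibroblast array with the myoblast array at 0.228. Whether paired arrays stem from separate cultures is not in the labels, so all p-values rest on the spread between arrays, technical or not. That spread came from the fibroblast, mammary tumor and myeloma pairs, and the lone myoblast and embryo fibroblast arrays were assumed to vary like them. A fit without 1 array of a pair loses that pair's share of the spread. The median residual SD was 0.427 with all arrays, 0.32 without fibroblast array 1 and 0.321 without fibroblast array 2. Calls gained in those 2 fits cannot be told apart from the loss of the least alike pair.

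In all, 58 of 7423 tested features passed the test (0.781%, limma adjusted p under 0.05), 36 of them higher (0.485%) and 22 lower (0.296%) in the myoblast line. At an unadjusted p under 0.05 the count was 996 (13.4%), 487 higher and 509 lower. The median difference over all features was -0.04. Without centring it was 0.18, and the 62 calls then split into 45 higher and 17 lower. The called differences ran in size from 2.63 upward, against a median SE of 0.5. The myoblast array lay above all 3 fibroblast arrays for each of the 36 higher features, where 24.5% of all features lay above, and below all 3 for each of the 22 lower ones, where 23.8% did. Of the 36 higher features 30 were highest in the myoblast line among the 11 lines (10.9% of all features were), and of the 22 lower features 12 were lowest in it (12.9% were). Because values on the same arrays made the calls, these counts describe the calls and do not support them. In bulk RNA, fewer cells of a type and less RNA per cell cannot be told apart.

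Of 11 muscle markers (Des, Myog, Chrna1, H19, Myod1, Tnni1, Tnnt1, Acta1, Cdh15, Itga7 and Ckm) 5 passed the test as higher (0.485% of all features did). All 11 markers were highest in the myoblast line among the 11 lines (10.9% of all features were) and lay above all 3 fibroblast arrays (24.5% did). Their median centred log2 ratio was 3.47 on the myoblast array, -1.35 and -2.17 on fibroblast arrays 1 and 2, and -1.01 on the embryo fibroblast array. These markers were chosen with results of these data known, so the values describe the array and do not support its label.

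**Figure D1:**
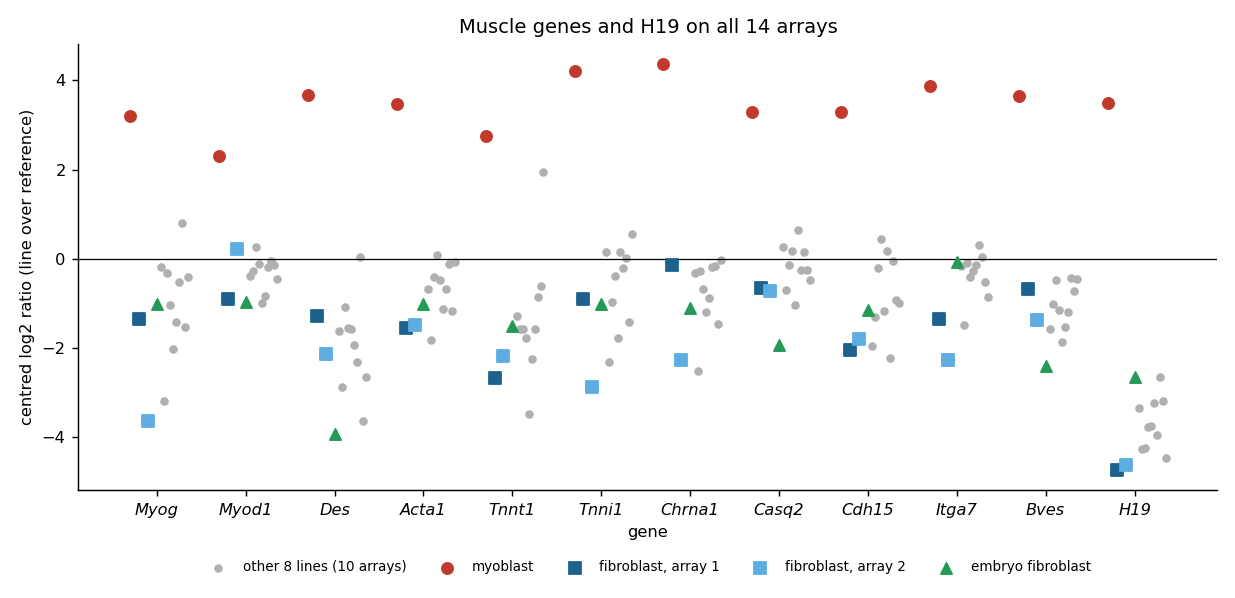
Centred log2 ratio of line over reference (vertical axis) for 12 genes (horizontal axis) on each of the 14 arrays, with a red circle for the myoblast array, squares for the fibroblast arrays, a green triangle for the embryo fibroblast array and grey points for the 10 arrays of the other 8 lines. The myoblast array is the highest point for every gene shown, and the fibroblast squares of Myog, Tnni1 and Chrna1 lie 1.97 to 2.28 log2 units apart.

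Among the myogenic regulators no probe passed the test in the main fit. With all arrays kept, the list held 1 higher call once a trend along the probe number was removed. It held 1 lower call when the comparator arrays had equal weight. Myog, the factor that starts terminal differentiation, had a centred log2 ratio of 3.19 on the myoblast array, -1.35 and -3.63 on fibroblast arrays 1 and 2 and -1.01 on the embryo fibroblast array. Its myoblast value stood well above the others, and the fibroblast arrays were 2.28 apart. The difference was 4.95 ± 1.46 (SE, limma adjusted p = 0.204). Myod1, the factor that sets the myogenic lineage, was at 2.32 on the myoblast array against -0.89, 0.22 and -0.96 on fibroblast arrays 1 and 2 and the embryo fibroblast array, a difference of 2.96 ± 0.51 (limma adjusted p = 0.0635). Both were highest in the myoblast line, and the next line was skin for each, at -0.31 for Myog and 0.26 for Myod1. The fits without a fibroblast array, given next, lack the spread of the fibroblast pair. Myod1 passed without fibroblast array 1 or 2 (limma adjusted p = 0.037 and 0.0243), and the list then held 1 higher call.

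The other regulators were mixed. Id3, an inhibitor that pairs with helix-loop-helix partners and keeps them off DNA, was at 1.30 against -2.81, -0.70 and -2.08, a difference of 3.22 (limma adjusted p = 0.189), and it was higher still in the mammary tumor line (2.04). Twist2, a repressor of myogenic factors active in connective tissue cells, was at -0.82 in the myoblast line against 2.85, 2.22 and 1.60, a difference of -2.89 ± 0.49 (limma adjusted p = 0.0635), so its order was the reverse. It passed as lower without fibroblast array 2 (limma adjusted p = 0.0419). Myf5, Myf6 and Pax7, chosen after their values were seen as further determination factors and the satellite cell factor, differed by 1.34, 0.89 and -1.10 (adjusted p = 0.205, 0.476 and 0.597 by limma). Over all 30 probes of the list the median difference was 0.21. Of these probes 11 lay above all 3 fibroblast arrays (36.7%, against 24.5% of all features) and 5 below (16.7%, against 23.8%). At an unadjusted p under 0.05, 9 were higher and 2 lower (6.56% and 6.86% of all features).

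Of 31 sarcomere probes 2 were called higher in the myoblast line (0.485% of all features were) and 0 lower. The list median was 1.57, and 26 of 31 probes lay above all 3 fibroblast arrays and 0 below (24.5% and 23.8% of all features). In the myoblast line 18 were highest among the 11 lines (58.1%, against 10.9% of all features). At an unadjusted p under 0.05 the counts were 18 higher and 0 lower (6.56% and 6.86% of all features). Acta1, the skeletal muscle actin, was at 3.47 on the myoblast array, -1.55 and -1.47 on the fibroblast arrays and -1.01 on the embryo fibroblast array. The 3 fibroblast arrays lay close together, far below the myoblast array, and the difference was 4.73 ± 0.61 (26.6-fold, limma adjusted p = 0.0344). Acta1 did not pass against the embryo fibroblast line alone (limma adjusted p = 0.0599). Its call was lost in 5 of 14 alternatives, among them a random block for the run of image numbers (limma adjusted p = 0.0526). Tnnt1, the slow skeletal troponin T that ties troponin to tropomyosin, was at 2.75 against -2.67, -2.17 and -1.50, and was higher by 4.71 ± 0.42 (26.2-fold, limma adjusted p = 0.0113). It was not confined to the myoblast line, since the T-cell lymphoma line stood at 1.95.

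Desmin, the intermediate filament of muscle that links sarcomeres to each other and to the membrane, had the widest difference after H19 and did not pass. Des was at 3.68 on the myoblast array, -1.28 and -2.13 on fibroblast arrays 1 and 2 and -3.92 on the embryo fibroblast array, and the difference was 6.49 ± 1.32 (limma adjusted p = 0.0928). Tnni1, the slow skeletal troponin I that blocks contraction at rest, was at 4.20 against -0.90, -2.88 and -1.01, a difference of 5.65 ± 1.17 (limma adjusted p = 0.0955). In both genes the myoblast array lay above every other array, while the fibroblast arrays differed by 0.85 for Des and 1.97 for Tnni1. Other troponin genes, chosen after their values were seen, had the same order: Tnnt3 differed by 4.67, Tnnc1 by 4.45 and Tnnc2 by 2.94 (limma adjusted p = 0.121, 0.166 and 0.0595).

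Des, Tnni1, Chrna1 and Myog had larger differences than most called genes and wider errors. Their standard errors ran from 1.12 to 1.46, whereas the highest among called features was 0.79. For Des the myeloma arrays were 3.67 apart, the mammary tumor arrays 1.26 and the fibroblast arrays 0.85, while the median gaps over all features were 0.44, 0.32 and 0.64. For Myog the gaps were 3.02 in the mammary tumor pair, 2.28 in the fibroblast pair and 2.32 in the myeloma pair. Without myeloma array 1 or 2 Des passed the test (limma adjusted p = 0.0443 and 0.0483). With the 4 arrays fitted alone, where 1 pair gives the spread, these differences stayed the same and the error of Myog fell to 0.87. That fit has 1 residual and 15.93 prior degrees of freedom, so its errors rest mostly on the spread pooled over all features. It therefore says little on the spread of these genes themselves.

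**Figure D2:**
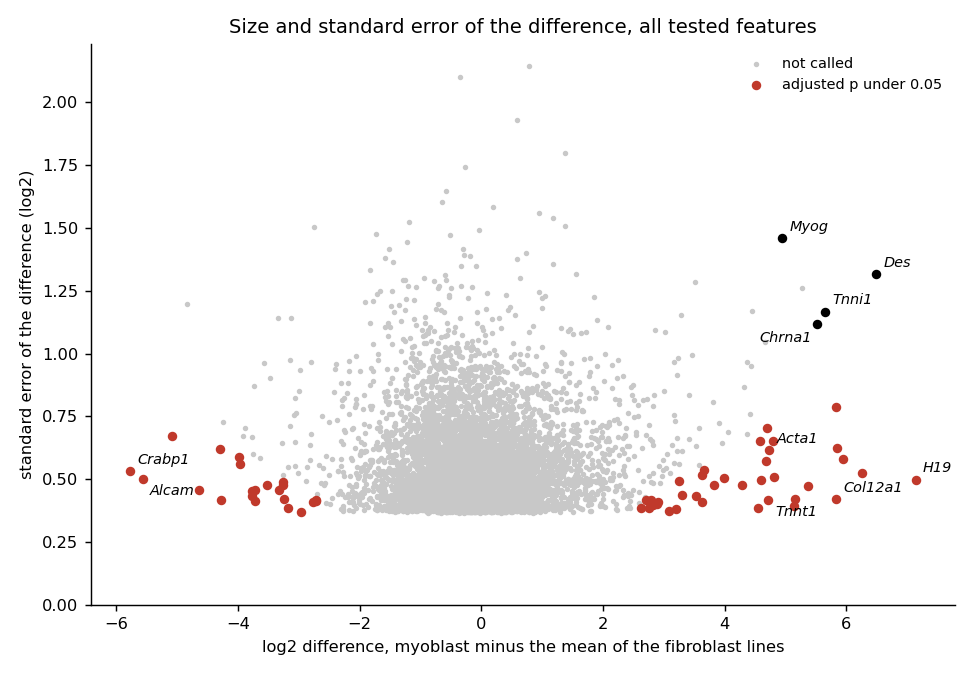
Log2 difference of the myoblast line from the mean of the fibroblast lines (horizontal axis) against its standard error (vertical axis) for 7423 tested features, with called features in red and the uncalled muscle genes Des, Myog, Chrna1 and Tnni1 in black. The black points lie as far right as red ones but higher, at standard errors from 1.12 to 1.46, and no red point lies above 0.79.

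Genes of excitation and the neuromuscular junction had a median difference of 0.75 over 32 probes, with 1 called higher (0.485% of all features were) and 0 lower. Casq2, calsequestrin 2, which stores calcium in the sarcoplasmic reticulum, was at 3.30 on the myoblast array, -0.66 and -0.73 on the fibroblast arrays and -1.92 on the embryo fibroblast array, and was higher by 4.61 ± 0.50 (24.3-fold, limma adjusted p = 0.0205). Its fibroblast arrays lay within 0.07 of each other. The call ended under quantile normalization and in fits lacking either myeloma array, and the list held 2 higher calls without fibroblast array 1 or 2. Chrna1, the subunit of the muscle acetylcholine receptor that binds the transmitter, was at 4.36 against -0.15, -2.26 and -1.11, a difference of 5.52 ± 1.12 (limma adjusted p = 0.0928). Rapsn, rapsyn, which clusters these receptors under the nerve ending, was at 3.35 against -0.88, -0.19 and -0.56, a difference of 3.90 ± 0.72 (limma adjusted p = 0.0748). Hrc, a calcium-binding protein of the sarcoplasmic reticulum, was at 2.97 against 0.60, -1.88 and 0.12 (3.23 ± 0.98, limma adjusted p = 0.214).

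The other receptor subunits on the array, chosen after their values were seen, showed an order of their own. Chrnb1, Chrnd and Chrng differed by 3.10, 2.85 and 1.74 (limma adjusted p = 0.0635, 0.199 and 0.297), and each was highest in the myoblast line. Chrne, the subunit that takes the place of Chrng at adult junctions, was at -1.08 on the myoblast array against 0.74, -0.63 and 0.38 and was lowest there among the 11 lines, with a difference of -1.30 (limma adjusted p = 0.464). No subunit passed the test. Of the 32 probes 16 lay above all 3 fibroblast arrays (50%, against 24.5% of all features) and 6 below (18.8%, against 23.8%). In the myoblast line 14 were highest (43.8%, against 10.9%).

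Of 36 probes for membrane, adhesion and fusion genes 5 were higher (0.485% of all features were) and 0 lower, with a median of 1.19. Bves, a membrane protein of striated muscle that binds cyclic AMP, was at 3.65 on the myoblast array, -0.68 and -1.37 on the fibroblast arrays and -2.40 on the embryo fibroblast array, and was higher by 5.37 ± 0.47 (41.3-fold, limma adjusted p = 0.0113). Cdh15, the M-cadherin by which muscle precursors adhere, was at 3.29 against -2.05, -1.78 and -1.15 (4.82 ± 0.51, limma adjusted p = 0.0202). Both genes were separated from every fibroblast array by more than 4 log2 units and were highest in the myoblast line among the 11 lines.

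Itga7, the laminin receptor subunit of muscle, was at 3.87 on the myoblast array against -1.35 and -2.25 on the fibroblast arrays and -0.06 on the embryo fibroblast array, and was higher by 4.80 ± 0.65 (27.8-fold, limma adjusted p = 0.0374). Itga7 did not pass against the embryo fibroblast line alone (limma adjusted p = 0.0918). Its call was lost in 5 of 14 alternatives, among them a random block for the run of image numbers (limma adjusted p = 0.0526). Cd82, a tetraspanin found on muscle stem cells, was at 1.93 against -1.56, -0.59 and -2.32 (3.62 ± 0.52, limma adjusted p = 0.0408). Sspn, sarcospan of the dystrophin complex, was at 2.40 against -2.0, -2.11 and 0.68 (3.09 ± 0.37, limma adjusted p = 0.03). For Sspn the embryo fibroblast array stood between the others, and the comparator lines differed by 2.73 (limma adjusted p = 0.0445): against the embryo fibroblast line alone the myoblast line did not pass (adjusted p = 0.163 by limma). Of the 36 probes 23 lay above all 3 fibroblast arrays (63.9%, against 24.5% of all features) and 4 lay below (11.1%, against 23.8%). In the myoblast line 19 were highest (52.8%, against 10.9%).

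Enzymes of muscle energy metabolism gave 0 calls by limma in 24 probes, with 5 higher and 2 lower at an unadjusted p under 0.05 (6.56% and 6.86% of all features) and a median of 0.68. Ckm, the muscle creatine kinase that buffers ATP, was at 2.53 against 0.39, -1.12 and -0.59 (3.01 ± 0.85, limma adjusted p = 0.189). Pygm, the muscle glycogen phosphorylase, was at 2.21 against -0.02, -1.59 and -0.43 (2.83 ± 0.64, limma adjusted p = 0.121). Eno3, the muscle enolase, was read by 2 probes with differences of 2.59 and 2.46 (limma adjusted p = 0.0508 and 0.0681), and on both the myoblast array lay above all 3 fibroblast arrays. The fits without a fibroblast array, given next, lack the spread of the fibroblast pair. Without fibroblast array 1 Pygm and 1 Eno3 probe passed (limma adjusted p = 0.0287 and 0.0463), and without fibroblast array 2 Pygm and both Eno3 probes (limma adjusted p = 0.0443, 0.0366 and 0.0366), so the list then held 2 and 3 higher calls.

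In the smooth muscle actin program 1 of 13 probes passed as higher (0.485% of all features did). Tagln, transgelin, an actin-binding protein of smooth muscle and of fibroblasts that turn contractile, was at 3.45 on the myoblast array, -3.26 and -3.04 on the fibroblast arrays and -0.26 on the embryo fibroblast array. It was higher by 5.16 ± 0.42 (35.6-fold, limma adjusted p = 0.0113), and the embryo fibroblast line stood 2.89 above the fibroblast line (limma adjusted p = 0.0524). Cnn1, the smooth muscle calponin, differed by 1.53 (limma adjusted p = 0.23). Flna, filamin A, which crosslinks actin, gave opposite signs on its 2 probes, 1.36 and -2.81 (limma adjusted p = 0.625 and 0.0952), and no direction is given for it. The list median was 0.33. Above all 3 fibroblast arrays lay 7 of the 13 probes (53.8%, against 24.5% of all features) and below them 3 (23.1%, against 23.8%).

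The widest difference of all belonged to H19, the maternally expressed noncoding RNA beside the imprinted Igf2 gene, which is abundant in embryonic muscle. H19 was at 3.49 on the myoblast array, -4.72 and -4.61 on the fibroblast arrays and -2.65 on the embryo fibroblast array. Every other line lay at or below the embryo fibroblast value, and the fibroblast arrays agreed within 0.11. The difference was 7.15 ± 0.50 (142-fold on the assumption of base 2, limma adjusted p = 0.0113), and H19 was higher against each comparator line alone, by 8.16 against the fibroblast line (limma adjusted p = 0.00736) and by 6.13 against the embryo fibroblast line (limma adjusted p = 0.0194). Igf2 itself, named for its place beside H19 after its value was seen, was at -0.12 on the myoblast array against 0.93, -0.46 and 0.27, a difference of -0.38 ± 0.60 (limma adjusted p = 0.837), and the myoblast value lay within the range of the fibroblast arrays.

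Of the other imprinted and IGF axis genes, Igfbp7, a secreted binding protein, was higher by 3.30 ± 0.44 (9.82-fold, limma adjusted p = 0.036), at 1.61 against -1.60, -1.12 and -2.0, although the kidney line stood above it at 1.98. Igf2r, the receptor that clears IGF2 from the cell surface and is itself imprinted in mice, was lower: it was at -2.29 on the myoblast array against 1.21, 1.15 and 0.90, a difference of -3.33 ± 0.46 (limma adjusted p = 0.0399). The 3 fibroblast arrays agreed closely for Igf2r. Sgce, the imprinted sarcoglycan gene, was at 2.25 against -1.47, -0.63 and -3.29 (4.43 ± 0.76, limma adjusted p = 0.0635), and the kidney line stood above it at 2.62. Thus 2 of 37 probes of this list were called higher (0.485% of all features were) and 1 lower (0.296%), and the list median was -0.20, against -0.04 for all features. With a random block for image run, and without any single mammary tumor or myeloma array, 1 was higher and 0 lower. The block gave limma adjusted p = 0.0697 for Igfbp7 and 0.0842 for Igf2r. Above all 3 fibroblast arrays lay 15 of the 37 probes (40.5%, against 24.5% of all features) and below them 8 (21.6%, against 23.8%).

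Matrix genes divided within the list. Nid2, nidogen 2 of basement membranes, was at 2.44 on the myoblast array against -3.58, -2.35 and -3.85 on the fibroblast and embryo fibroblast arrays, and was higher by 5.84 ± 0.63 (limma adjusted p = 0.0205). Col12a1, a collagen that decorates fibrils, was at 2.43 against -3.23, -3.37 and -3.51 and was higher by 5.84 ± 0.42 (limma adjusted p = 0.0113). Postn, periostin, a matricellular protein that is itself a fibroblast marker, was at 2.58 against -2.93, -2.91 and -3.61 (5.84 ± 0.79, limma adjusted p = 0.0373). All 3 differences came to about 57-fold (57.4, 57.2 and 57.2), and on each probe all 3 fibroblast arrays lay below -2. For Col12a1 they lay close together, while for Nid2 the fibroblast arrays were 1.23 apart. With a random block for the run of image numbers Nid2 and Postn did not pass (limma adjusted p = 0.0526 and 0.1). Ogn, the small proteoglycan osteoglycin, was at 2.75 against -1.56, -0.35 and -2.28 (4.36 ± 0.68, limma adjusted p = 0.0508).

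The rest of the matrix list stood nearer to the fibroblast lines. Over 69 probes 3 were higher (0.485% of all features were) and 0 lower, with a median of 0.35. Above all 3 fibroblast arrays lay 27 (39.1%, against 24.5% of all features) and below them 8 (11.6%, against 23.8%). Highest in the myoblast line among the 11 lines were 22 (31.9%, against 10.9%). Against the other 8 lines of the series the same probes had a median of 1.64 and 9 were called higher (50 of 7423 features, 0.674%, were higher in that comparison). Dcn, decorin, the proteoglycan of fibrillar collagen, and Col1a1, the main collagen chain of connective tissue, were picked after their values were seen. Dcn was at -2.0 on the myoblast array against 2.12, 1.88 and -0.66 (-2.67, limma adjusted p = 0.0964), and Col1a1 at 2.12 against -0.74, 0.97 and -1.37 (2.75, limma adjusted p = 0.164). Over the 9 probes of the fibroblast marker list, where Postn alone was called, the median ratio was -0.47 on the myoblast array, -0.85 and 0.39 on fibroblast arrays 1 and 2 and -0.66 on the embryo fibroblast array, against -1.35 for the mean of the other 8 lines. The myoblast median thus lay within the range of the 3 fibroblast arrays.

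Among chemokines and matrix proteases 3 of 36 probes were higher (0.485% of all features were) and 0 lower, with a median of 0.68. Above all 3 fibroblast arrays lay 21 probes (58.3%, against 24.5% of all features) and below them 3 (8.33%, against 23.8%). Highest in the myoblast line among the 11 lines were 13 (36.1%, against 10.9%). Mmp9, the gelatinase that cuts basement membrane collagen, was at 3.96 on the myoblast array, -1.42 and -1.93 on the fibroblast arrays and -2.95 on the embryo fibroblast array, and was higher by 6.26 ± 0.52 (76.9-fold, limma adjusted p = 0.0113). No other line had a value above 0, the nearest being T-cell lymphoma at -0.56. Ccl7, a chemokine that draws monocytes, was at 3.52 against -0.84, -0.01 and -0.52 (4.0 ± 0.50, limma adjusted p = 0.0312), with the macrophage line next at 1.21. Mmp23, a membrane-bound matrix metalloproteinase, was at 2.61 against -0.08, -0.13 and -1.75 (3.54 ± 0.43, limma adjusted p = 0.0305). With a random block for image run Ccl7 and Mmp23 did not pass (limma adjusted p = 0.0584 and 0.0526), which left 1 call. Mmp3, stromelysin 1, was at 2.31 against -1.73, 0.13 and -1.50 (3.46 ± 0.99, limma adjusted p = 0.189).

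A further pair of genes was among the 12 widest called increases and belonged to no list. Wnt10a, a secreted Wnt ligand, was at 1.72 on the myoblast array against -3.44, -2.99 and -3.65, and was higher by 5.15 ± 0.39 (35.5-fold, limma adjusted p = 0.0113), while the liver line stood as high at 1.80. Tmem176b, a membrane protein gene studied mostly in myeloid cells and higher still in the macrophage line (1.97), was at 1.37 against -2.44 and -1.70 on the fibroblast arrays and -7.07 on the embryo fibroblast array. Its difference of 5.94 ± 0.58 (limma adjusted p = 0.0136) was wider against that last array. The comparator lines differed by -5.00 (limma adjusted p = 0.0335), and against the fibroblast line alone the difference was 3.44 and did not pass (adjusted p = 0.0625 by limma). An unnamed probe, singled out after its values were seen, was called in the same way at 0.83 against 0.80, 0.81 and -5.65.

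The Notch pathway gave 1 higher call in 26 probes (0.485% of all features were higher), 0 lower and a median of 0.14. Above all 3 fibroblast arrays lay 10 probes (38.5%, against 24.5% of all features) and below them 6 (23.1%, against 23.8%). Notch3, a receptor of muscle precursors and vascular smooth muscle, was at 2.45 on the myoblast array against -2.65, -1.20 and -2.57, and was higher by 4.70 ± 0.70 (26.1-fold, limma adjusted p = 0.0443). Against neither comparator line alone did it pass (limma adjusted p = 0.0523 and 0.0622), and the call ended under a random block for image run (limma adjusted p = 0.093). The ligand Dll1 was at 3.16 against 1.04, -0.60 and -2.65 (4.38 ± 0.97, limma adjusted p = 0.114). The target gene Hes1, higher still in the mammary tumor line (2.26), was at 1.49 against -2.01, -1.40 and -1.27 (2.98 ± 0.58, limma adjusted p = 0.082). The ligand Jag1 went the other way, at -4.73 against -2.90 on fibroblast array 1 and -1.44 on the embryo fibroblast array, with no value on fibroblast array 2 (-2.56, limma adjusted p = 0.147). Receptor, ligand and target values thus lay above the fibroblast arrays for Notch3, Dll1 and Hes1 and below them for Jag1.

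The genes lower in the myoblast line differed in where that line stood among all 11 lines. Crabp1, which binds retinoic acid in the cytosol, was at -3.30 on the myoblast array against 2.26 and 2.80 on the fibroblast arrays and 2.42 on the embryo fibroblast array, and was lower, with a difference of -5.78 ± 0.53 (54.8-fold, limma adjusted p = 0.0116). Hmga2, a chromatin protein of embryonic cells, was at -2.18 against 2.48, 2.50 and 2.43 (-4.64 ± 0.46, limma adjusted p = 0.0136). For Hmga2 the 3 fibroblast arrays lay between 2.43 and 2.50. Against the mean of the other 8 lines neither gene differed by the test, with differences of -0.30 for Crabp1 and -0.34 for Hmga2 (limma adjusted p = 0.781 and 0.705). High Hmga2 was not confined to the fibroblast lines, since the skin line stood at 1.655. The next highest of the other 8 lines was mammary tumor at -0.83.

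Alcam, an adhesion molecule of the immunoglobulin family, was at -3.63 on the myoblast array against 1.26, 1.38 and 2.55 (-5.57 ± 0.50, 47.3-fold, limma adjusted p = 0.0113), and no line was lower. Itgb7, an integrin chain of leukocytes, was at -3.75 against 0.92, 0.94 and 0.13 (-4.28 ± 0.42, limma adjusted p = 0.0136). Bdkrb2, the bradykinin receptor, was at -4.21 against 0.13, -0.67 and -0.62 (-3.77 ± 0.46, limma adjusted p = 0.03). For these 3 genes the myoblast line was the lowest of the 11 lines, and against the other 8 lines Itgb7 and Bdkrb2 were also lower (limma adjusted p = 0.0392 and 0.0277), while Alcam did not pass (limma adjusted p = 0.0723).

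Pla2g7, a secreted enzyme that breaks down platelet-activating factor, was at -3.36 on the myoblast array against 1.87 and 2.11 on the fibroblast arrays and -0.12 on the embryo fibroblast array (-4.29 ± 0.62, limma adjusted p = 0.0425). Msln, mesothelin, a surface protein of mesothelial cells, ran from -0.68 and 0.46 on the fibroblast arrays to 2.65 on the embryo fibroblast array, against -2.70 (-3.97 ± 0.56, limma adjusted p = 0.0399). In these genes the comparator lines lay apart, by -2.10 and 2.76, although not by the test (limma adjusted p = 0.229 and 0.118). Pla2g7 did not pass against the embryo fibroblast line alone (limma adjusted p = 0.122), nor Msln against the fibroblast line alone (limma adjusted p = 0.127). The remaining lower genes with wide differences were Irx2, an Iroquois homeobox factor (-3.98), Ott, a gene of the X chromosome (-3.76), the mitochondrial protein gene Nipsnap1 (-3.72), the sphingosine 1-phosphate receptor S1pr3 (-3.72) and the tetraspanin Cd151 (-3.52), with limma adjusted p from 0.0236 (S1pr3) to 0.0443 (Irx2).

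**Figure D3:**
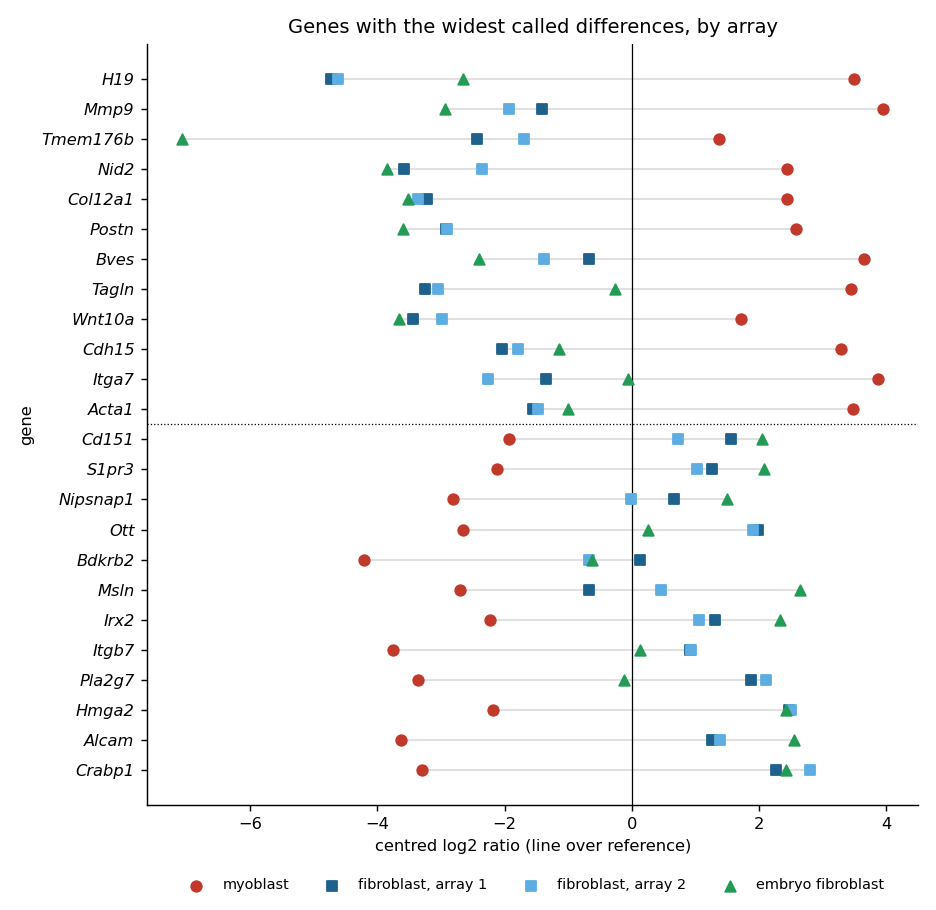
Centred log2 ratio of line over reference (horizontal axis) on the myoblast array (red circle), the fibroblast arrays (squares) and the embryo fibroblast array (green triangle) for the 12 widest higher and the 12 widest lower called genes (vertical axis, split by the dotted line). In every row the red circle lies outside the 3 comparator arrays, as the naming rule required, and the embryo fibroblast array of Tmem176b lies apart at -7.07.

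No cell cycle gene passed the test in the main fit, and most had negative differences. Over 48 probes limma called 0 higher and 0 lower, with 17 lower and 5 higher at an unadjusted p under 0.05 (6.86% and 6.56% of all features), the median difference was -0.82, and 31 probes (64.6%) lay below all 3 fibroblast arrays, against 23.8% of all features. The list medians were -0.57 on the myoblast array, 0.04 and 0.26 on the fibroblast arrays, 0.18 on the embryo fibroblast array and 0.21 for the mean of the other 8 lines. Aurka, the mitotic kinase, was at -1.22 against 1.22, 0.49 and 1.28 (-2.29 ± 0.44, limma adjusted p = 0.082), and Ccnd2, a cyclin of the first gap phase, at -1.84 against -0.03, 0.14 and 0.80 (-2.27 ± 0.38, limma adjusted p = 0.0595). A pair of brakes on the cycle had the opposite order. Cdkn1a, an inhibitor of cyclin-dependent kinases, was at 2.55 against -0.37, 0.25 and 0.34 (2.41 ± 0.44, limma adjusted p = 0.0741), and Rb1, which holds back S-phase genes, at 1.80 against -0.38, -0.64 and -0.35 (2.24 ± 0.38, limma adjusted p = 0.0635). Both were highest in the myoblast line among the 11 lines. The fits without a fibroblast array, given next, lack the spread of the fibroblast pair. Without fibroblast array 1 Rb1 passed as higher and Ccnd2 as lower (limma adjusted p = 0.0493 for each). Without fibroblast array 2 Cdkn1a and Rb1 passed as higher (limma adjusted p = 0.0426 and 0.046) and Aurka and Ccnd2 as lower (limma adjusted p = 0.0419 and 0.0453).

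**Figure D4:**
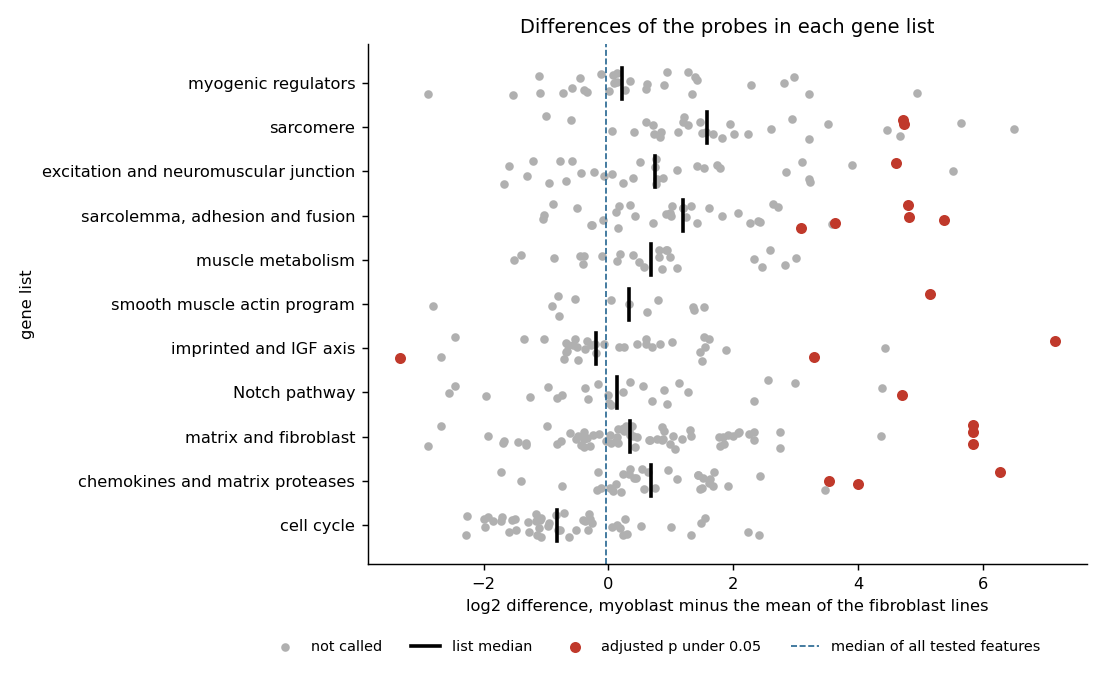
Log2 difference of the myoblast line from the mean of the fibroblast lines (horizontal axis) for every tested probe of 11 gene lists (vertical axis), with called probes in red, a black bar at each list's median and a dashed line at the median of all tested features (-0.04). The sarcomere bar lies at 1.57, the bar of membrane, adhesion and fusion genes at 1.19 and the cell cycle bar at -0.82.

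Among markers of other cell types, the 13 leukocyte, 11 epithelial, 9 endothelial and 7 adipocyte probes and the 9 probes of cartilage and bone gave 0 calls by limma. At an unadjusted p under 0.05, 1, 1, 2, 0 and 2 were higher and 2, 1, 1, 0 and 1 lower (6.56% and 6.86% of all features). Leukocyte markers had a median ratio of -2.56 on the myoblast array and from -2.74 to -2.14 on the 3 fibroblast arrays, and epithelial markers -1.28 and from -2.85 to -1.18. Of 11 neural and glial probes only Nes passed, as higher (0.485% of all features were), and it was chosen here after its values were seen. It encodes nestin, an intermediate filament of neural and muscle precursors, and was at 2.76 against -1.51, -2.24 and -1.78 (4.59 ± 0.65, limma adjusted p = 0.0399). The kidney line stood as high, at 2.81.

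Each comparator line was also taken alone. Against the fibroblast line 85 features passed (1.15%), 52 higher (0.701%) and 33 lower (0.445%), and against the embryo fibroblast line 59 (0.795%), 37 higher (0.498%) and 22 lower (0.296%). These comparisons share the myoblast array. The comparator lines differed from each other at 49 features (0.66%), 19 higher (0.256%) and 30 lower (0.404%) in the embryo fibroblast line, 3 of which were among the 58 called. Against the mean of the other 8 lines 74 features passed (0.997%), 50 higher (0.674%) and 24 lower (0.323%), and 24 of the 36 higher and 8 of the 22 lower calls were called there in the same direction. The myoblast array belonged to another run of image numbers than each fibroblast array, so run and line could not be separated by a fixed term. With the run as a random block 14 of the 58 calls remained. Without either mammary tumor array 19 remained, without either myeloma array 20, and without either fibroblast array all 58, while the totals became 95 and 147. The fits without a fibroblast array lack that pair's spread, and calls gained there cannot be told apart from its loss. With arrays scaled to the same median absolute deviation none passed, the lowest adjusted p being 0.0533 by limma, and 701 features had an unadjusted p under 0.05. Apart from that scaling, H19, Mmp9, Tmem176b, Col12a1, Bves, Tagln, Wnt10a, Tnnt1, Crabp1, Alcam, Hmga2 and Itgb7 were called under every alternative tried. Notch3, Cd82, Igfbp7, Sspn and Msln lost the call in 7 of 14 alternatives each, the most among named calls. The higher calls of the membrane, adhesion and fusion list fell from 5 to 3 without mammary tumor array 1 or 2, to 2 without myeloma array 1 or 2 and to 1 with the run block. With that block the higher calls were also 1 each in the sarcomere (from 2), matrix (from 3), chemokine and protease (from 3) and imprinted (from 2) lists, and 0 in the Notch list (from 1). Those of the sarcomere list were 2 without any single one of these arrays and 4 without fibroblast array 1 or 2, those of the matrix list 2 without mammary tumor array 1 or 2 and 6 without fibroblast array 2, and those of the chemokine and protease list 1 without any single mammary tumor or myeloma array. The calls of Notch3 and Igf2r ended without each of these 4 arrays.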

How the data were processed

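The table the authors deposited holds 1 value per spot and array, read here as log2 ratios of line over reference. How the authors corrected, normalized and filtered the spots, and the base and direction of the ratios, were not given in the sources used here. Both were judged from the values: the mean unlogged ratio over lines had a median of 1.003 in this reading, 1.2 with the opposite sign, 1.072 on a natural log scale and 1.867 on a log10 scale. Over the probes that varied most between lines these medians were 0.926, 3.107, 1.187 and 6.693. A value of 1 is the mark only if the lines entered the reference in equal parts, which was assumed. Every fold rests on base 2, which the values part only weakly from natural logs. Dyes were never exchanged. The first mammary tumor array has extra letters in its reference label.

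Of 7680 probes 6835 had 1 gene symbol, 4 several and 841 were unlisted, and 6809 symbols were updated through gene IDs (RefSeq, GRCm38.p6). The 80 Gapdh spots were averaged. Of 107520 cells 423 (0.393%) were empty. Features measured in every line (7423) entered 1 fit with limma 3.58.1 in R 4.3.3, with a mean per line over all 14 arrays, 3 residual and 3.77 prior degrees of freedom, two-sided tests and Benjamini-Hochberg adjustment over all features, called at 0.05. It was tested on simulated data. Errors are SEs of the fit, and the 3 pairs of arrays limit its precision. Probes of a gene were kept apart.

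Named genes were the 12 widest calls in each direction with the myoblast array beyond all 3 comparator arrays, Des, Myog, Chrna1 and H19, and in each list every called member and the 4 widest. The comparison, markers and lists were chosen with earlier results of these data known, and all 544 list entries matched a RefSeq gene. Alternatives were other centring or scaling, quantile normalization, features on all arrays, the image run as a block, removal of a trend along the probe number, single arrays left out, the 4 arrays alone and equal weight for the comparator arrays.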

Additional observations from a re-analysis of the deposited data

Results flagged for a closer look

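For 2 named genes the comparator lines themselves differed by the test, so that the difference of the myoblast line depends on which line it is set against. Tmem176b was lower in the embryo fibroblast line than in the fibroblast line, with a difference of -5.00 (limma adjusted p = 0.0335). Sspn was higher in the embryo fibroblast line by 2.73 (limma adjusted p = 0.0445). Each of these differences rests on 1 embryo fibroblast array, and neither was called without a mammary tumor array, where no feature passed between the comparator lines. The cause was not tested.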

How the results depend on the processing

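No paired analysis was possible because the myoblast and embryo fibroblast lines have 1 array each and share no replicate numbers that pair arrays. The 58 calls became 0 (0 higher, 0 lower) with arrays scaled to the same median absolute deviation and 14 (10 higher, 4 lower) with the image run as a random block, whose estimated correlation was 0.456; the higher calls became 23 with quantile normalization. With the scaled arrays the other comparisons gave 0 calls against the fibroblast line, 0 against the embryo fibroblast line, 3 between the comparator lines and 6 against the other 8 lines, with 629, 746, 633 and 814 at an unadjusted p under 0.05 by limma. With the run block these counts were 40, 37, 123 and 25, and with quantile normalization the last was 48. Leaving out 1 array at a time gave from 19 to 147 calls in the main comparison (13 to 79 higher, 5 to 68 lower), 18 to 94 against the fibroblast line, 0 to 118 against the embryo fibroblast line, 0 to 43 between the comparator lines and 2 to 238 against the other 8 lines. The lowest main count came without mammary tumor array 1 or 2 and the highest without fibroblast array 2, and a lone array left in a line was assumed to vary like the other pairs. The zeros against the embryo fibroblast line came without either mammary tumor or either myeloma array, with lowest adjusted p from 0.0504 to 0.0586 and 778 to 1060 features at an unadjusted p under 0.05; those between the comparator lines came without either mammary tumor array. Of 824 values of the 59 named features under the alternatives, 668 stayed on the same side of the threshold, 122 lost the call, 34 gained it and 0 reversed. Of 308 list counts 233 stayed within 1.5 times and 75 moved.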

Other observations

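Called genes outside the lists and the widest changes, chosen after their values were seen, included a second Wnt ligand, Wnt6, which was higher by 3.83 ± 0.48 (limma adjusted p = 0.0312), at 1.71 on the myoblast array against -0.92, -1.58 and -2.99 on the fibroblast and embryo fibroblast arrays. In the RefSeq order of GRCm38.p6 it has 2 genes between itself and Wnt10a, neither of them tested here, and this was the only pair among 51 placed called genes with at most 5 genes between them. The growth factor gene Tgfb2 was higher by 4.55 ± 0.39 (limma adjusted p = 0.0113), at 2.16 against -2.35, -2.22 and -2.49, and the fibrillar collagen gene Col5a3 by 3.21 ± 0.38 (limma adjusted p = 0.03). G0s2, an inhibitor of fat breakdown, was higher by 4.29 ± 0.48 (limma adjusted p = 0.0342).

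Of the 19 lower calls with a placed gene, 3 lay on the X chromosome, which held 251 of 6389 placed tested genes: Ott (-3.76), Xlr (-3.27) and Rhox5 (-3.18), with limma adjusted p of 0.0274, 0.0437 and 0.03. All 3 were lowest in the myoblast line among the 11 lines, and no placed higher call lay on that chromosome. Besides Irx2, the related homeobox gene Irx1 was lower, with a difference of -2.72 (limma adjusted p = 0.0494), at -1.93 against 0.78, 0.76 and 0.81.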
